A study of Mus musculus with 10 samples.

Results

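Collagen chains are modified inside the cell before they are secreted, and the fibrils they form are crosslinked outside it. Collagen prolyl 4-hydroxylases pair a catalytic alpha subunit (P4ha1, P4ha2 or P4ha3) with a shared beta subunit. They hydroxylate prolines and so make the triple helix stable at body temperature. Prolyl 3-hydroxylases such as P3h2 modify a few further prolines, and lysyl hydroxylases (Plod1, Plod2 and Plod3) modify lysines that later carry sugars and crosslinks. All of these enzymes use oxygen, iron, ascorbate and 2-oxoglutarate. Serpinh1 (HSP47) is the endoplasmic reticulum chaperone of procollagen, and Lox and Loxl2 are secreted copper enzymes that oxidise lysines to start crosslinks. In tumours, several of these genes are known targets of the hypoxia-inducible factor HIF-1.

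The genes described here are these 10, taken as a list of collagen hydroxylases, lysyl oxidases and the collagen chaperone out of 30142 genes with a row of their own on the array. A gene was measured by a row whose platform annotation names that gene alone, and by the brightest such row where there were several; P3h2 is written there under its older symbol Leprel1. Rows of this kind were found for 8 of the 10. Plod3 and Loxl2 appear only in rows shared with other genes and therefore have no value here. Of the 8 genes, 7 lay above the signal floor (log2 5.24, the median of all rows' means) and were tested, and Lox lay below it.

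The cells were 4T1, an established mouse mammary carcinoma line, started at 50000 per gel. They spent 5 days in RPMI 1640 medium with 10% fetal bovine serum at 37 °C and 5% CO2, with a medium change on day 3. The low density (LD) group had gels of 2 mg of collagen per mL and the high density (HD) group gels of 3.5 mg/mL, with 5 Affymetrix MTA 1.0 arrays in each. The labels name no other treatment or allele, and do not say whether the 5 samples of a group were separate cultures, so the p-values speak only to differences among these arrays, part or all of which could be technical. It is 1 cell line, and the comparison asks how collagen density changes expression in it.

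All values are signals on the log2 scale, and their precision is set by the number of arrays. Some array controls moved with the groups. The negative control rows had a median of 5.67 ± 0.052 on LD arrays and 5.42 ± 0.12 on HD arrays (SD, n = 5). That of the positive control rows was 9.21 ± 0.011 and 9.28 ± 0.045 (exact permutation test, two-sided, p = 0.0079 in both cases, the lowest value possible for 2 groups of 5). The spike-in control rows (ERCC) had medians of 4.43 ± 0.049 and 4.52 ± 0.088 (exact permutation p = 0.11). The transcript rows had medians of 5.165 ± 0.020 and 5.166 ± 0.024 (exact permutation p = 0.97). Background rows rose, from 3.47 ± 0.055 on LD arrays to 3.63 ± 0.057 on HD arrays (SD, n = 5). The part of these shifts in the results was not tested beyond a rescaling of the arrays on their control rows. This control-row scaling moved the listed genes largely by brightness, raising changes of dim rows and lowering those of bright rows. P4htm (5.41 in LD) went from 0.17 to 0.42, Serpinh1 (8.03) from 0.02 to 0.06 and Ppib (11.6) from 0.12 to -0.15. Values given with it are to be read with that in mind. Epithelial markers were bright, with a mean of the 5 listed genes of 10.7 on LD arrays and 10.5 to 10.6 on HD arrays. Of these, 3 fell and 0 rose, where 19.5% of all genes tested fell and 31.4% rose. With arrays centred on their medians 2 of these markers fell, and with control-row scaling 4. The call of Cdh1 was lost without LD replicate 3 (limma adjusted p = 0.054). Epcam fell most (10.79 ± 0.14 to 10.19 ± 0.039, n = 5). Of 6 fibroblast markers, Dcn, Lum and Fap lay below the floor in both groups (3.40 to 3.89), 1 had no row of its own, and Pdgfrb and Thy1 stayed below 5.67 in LD, with Thy1 called higher by 0.12 (0.36 with control-row scaling). The mean of all fibroblast markers with a row of their own ran from 4.34 to 4.42 on LD arrays and 4.36 to 4.49 on HD arrays. Of 5 leukocyte markers, 1 had no row of its own and Ptprc (3.09 in LD, 3.14 in HD) and Csf1r lay below the floor. The mean of all leukocyte markers with a row of their own ran from 5.48 to 5.53 on LD arrays and 5.34 to 5.42 on HD arrays. Cd3e, at 5.29 in LD and so below the negative control median, was called higher by 0.16. That call was lost without LD replicate 2 or HD replicate 3 (limma adjusted p = 0.059 and 0.055), and also with array weights or ordinary t statistics. Cd68 fell from 8.57 ± 0.093 to 7.83 ± 0.18 (n = 5). The part of these markers in the results was not tested. In bulk RNA, fewer cells of a type and less RNA per cell cannot be told apart.

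Promoters of these genes were read from RefSeq (GRCm38.p6) where its table held them, because the core letters bound by HIF-1, ACGTG or GCGTG, can be looked for in them. The table held a promoter for 6 of the 10 genes: P4ha1, P4ha2, P4ha3, Plod1, Plod3 and Serpinh1. Both strands of the 250 bases before the start site were searched, and overlapping matches were counted singly. P4ha1 and P4ha2 each held 3 matches, 1 of ACGTG and 2 of GCGTG. Plod3, which has no expression value here, held 4 (1 ACGTG and 3 GCGTG). Plod1 held 1 (GCGTG), Serpinh1 1 (ACGTG) and P4ha3 none. Among 32851 promoters of the same length, 16.6% held ACGTG, 28.2% held GCGTG, 38.6% held either, and 6.58% held at least 3 matches. The bases outside RefSeq's span of each gene are shown for 3 genes that were lower in HD and 1 that was higher, 5′ to 3′ on the gene's strand, with matches on either strand in capitals. Those of P4ha1 are chr10:59323046-59323196 (plus strand, 2 of its 3 matches), those of P4ha2 chr11:54100674-54100923 (plus), those of Plod1 chr4:147936777-147937026 (minus) and those of P4ha3 chr7:100285270-100285488 (plus).
P4ha1: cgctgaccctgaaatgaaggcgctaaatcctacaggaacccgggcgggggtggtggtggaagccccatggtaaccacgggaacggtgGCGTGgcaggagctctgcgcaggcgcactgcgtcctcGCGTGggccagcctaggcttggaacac
P4ha2: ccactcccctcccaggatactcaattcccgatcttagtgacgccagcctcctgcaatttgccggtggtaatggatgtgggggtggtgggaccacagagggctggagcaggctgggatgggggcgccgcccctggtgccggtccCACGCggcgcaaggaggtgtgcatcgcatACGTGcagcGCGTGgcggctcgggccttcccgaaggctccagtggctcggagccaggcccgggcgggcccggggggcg
Plod1: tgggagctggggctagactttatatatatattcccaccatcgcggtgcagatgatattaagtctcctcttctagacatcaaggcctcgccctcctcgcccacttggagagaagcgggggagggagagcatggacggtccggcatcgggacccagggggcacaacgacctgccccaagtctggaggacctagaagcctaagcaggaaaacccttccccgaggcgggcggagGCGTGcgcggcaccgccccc
P4ha3: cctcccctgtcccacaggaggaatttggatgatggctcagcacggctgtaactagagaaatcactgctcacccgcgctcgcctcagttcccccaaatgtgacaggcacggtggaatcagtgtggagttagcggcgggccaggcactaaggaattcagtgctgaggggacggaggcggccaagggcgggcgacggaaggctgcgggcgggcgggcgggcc
A match is a run of letters and not a measured binding site, and the absence of one says only that these letters are not in this window.

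Most of the tested genes differed between the gels. With limma and Benjamini-Hochberg adjustment over 17800 genes, 4 of the 7 were lower in HD (P4ha1, P4ha2, Plod1 and Plod2) and 2 were higher (P4ha3 and P3h2), and Serpinh1 passed in neither direction. The same test called 50.9% of all genes, 31.4% as higher and 19.5% as lower. The HD and LD arrays did not overlap for 6 of the 7, against 36.7% of all genes. The count of calls among the 7 is to be read against that background. The median log2 change of the 7 was -0.72, against 0.055 for all genes tested, and 90% of all genes lay between -0.344 and 0.378. The list was chosen with earlier results of these data known, so these comparisons with all genes only describe it. Among all calls the higher genes were 61.7% with the deposited values, but 72.1% when the arrays were quantile normalized again or rescaled on their control rows.

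**Figure D1:**
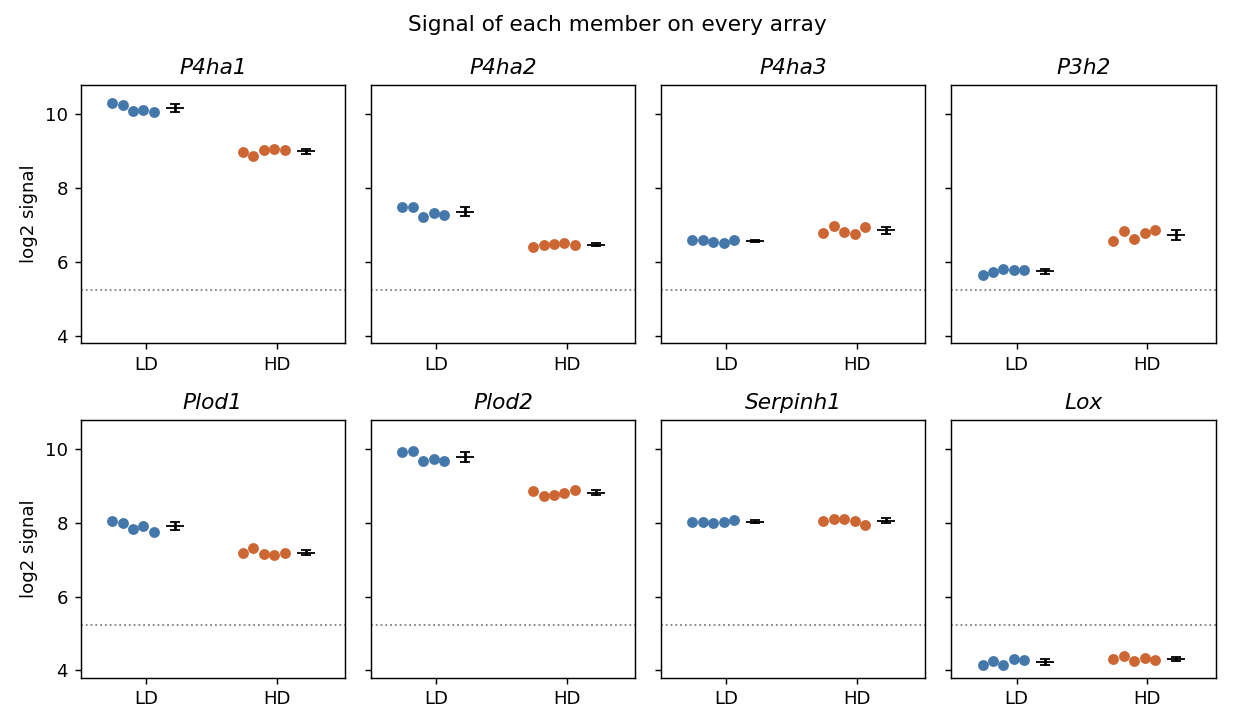
Log2 signal of the 8 genes with a row of their own on the 5 LD and 5 HD arrays (points, replicates 1 to 5 from left to right in each group), with mean and SD beside them (bars) and the signal floor of 5.24 as a dotted line. P4ha1, P4ha2, Plod1 and Plod2 lie lower and P4ha3 and P3h2 higher in HD without overlap, Serpinh1 overlaps, and Lox lies below the floor.

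The major prolyl 4-hydroxylase subunit showed the largest fall of the group. P4ha1 read 10.32, 10.25, 10.10, 10.13 and 10.06 on LD replicates 1 to 5 and 8.97, 8.88, 9.03, 9.07 and 9.04 on HD replicates 1 to 5. Every HD array lay below every LD array, with 0.989 between the lowest LD and the highest HD value, and LD replicates 1 and 2 stood highest. The means were 10.17 ± 0.109 (SD, n = 5) and 9.00 ± 0.073, a 2.25-fold fall (limma: log2 change -1.17 ± 0.054 SE, adjusted p = 4.1e-09). It ranked 31 of 17800 genes ordered from the largest fall.

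P4ha2, the second catalytic subunit, fell as well. Its signals were 7.50, 7.48, 7.21, 7.34 and 7.28 in LD and 6.40, 6.47, 6.49, 6.52 and 6.44 in HD. The groups were 0.688 apart, and again LD replicates 1 and 2 were the highest arrays. P4ha2 was 1.86-fold lower in HD (7.36 ± 0.126 to 6.46 ± 0.048 SD, n = 5; log2 change -0.90 ± 0.055 SE, limma adjusted p = 5.0e-08), at rank 95 among the falls.

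P4ha3, the remaining alpha subunit, moved the other way and by less. On the LD arrays it stood at 6.58, 6.58, 6.55, 6.51 and 6.59, and on the HD arrays at 6.78, 6.97, 6.81, 6.77 and 6.96. All HD values were above all LD values, by only 0.179 at the closest, with HD replicates 2 and 5 highest. The rise was 1.23-fold (6.56 ± 0.035 to 6.86 ± 0.098 SD, n = 5; log2 change 0.29 ± 0.046 SE, limma adjusted p = 1.3e-04), inside the range that holds 90% of all genes. Control-row scaling gave 0.44.

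P3h2, a prolyl 3-hydroxylase known to act on basement membrane collagen, showed the largest rise of the group. It went from 5.63, 5.73, 5.81, 5.77 and 5.78 in LD to 6.58, 6.84, 6.61, 6.78 and 6.85 in HD. The groups were 0.770 apart. Its LD values were close to the negative control median of 5.67, and LD replicate 1 was below it. The difference of the means (5.74 ± 0.069 and 6.73 ± 0.131 SD, n = 5) was 1.98-fold (log2 change 0.99 ± 0.058 SE, limma adjusted p = 3.8e-08) as measured. With LD values at the level of the control rows, the size of this rise is not well determined.

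Of the lysyl hydroxylases, Plod2 and Plod1 both fell. Plod2 hydroxylates lysines in the telopeptides, the non-helical ends of the chains, and its loss or gain is known to alter crosslink type. It read 9.92, 9.96, 9.69, 9.73 and 9.68 in LD and 8.88, 8.73, 8.76, 8.81 and 8.90 in HD. No array of one group reached the other, and the gap was 0.780. Plod2 was 1.97-fold lower (9.79 ± 0.133 to 8.82 ± 0.071 SD, n = 5; log2 change -0.98 ± 0.059 SE, limma adjusted p = 4.8e-08) and ranked 72 among the falls.

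Plod1 hydroxylates lysines within the triple helix. Its LD signals were 8.05, 8.00, 7.85, 7.91 and 7.76, and its HD signals were 7.17, 7.31, 7.17, 7.14 and 7.18. HD replicate 2 stood above the other HD arrays but still 0.458 below the lowest LD array. The fall was 1.65-fold (7.91 ± 0.116 to 7.19 ± 0.065 SD, n = 5; log2 change -0.72 ± 0.054 SE, limma adjusted p = 2.5e-07), at rank 156.

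Serpinh1, the procollagen chaperone, had overlapping groups. Its brighter row read 8.01, 8.03, 8.01, 8.03 and 8.09 in LD and 8.05, 8.12, 8.11, 8.06 and 7.95 in HD. The log2 difference was 0.02 with a 95% interval of -0.06 to 0.11 (limma adjusted p = 0.63), which bounds a change in HD between 0.959-fold and 1.08-fold of LD on these arrays. Its dimmer row had a mean of 6.13 in both groups, with an SD of 0.103 in LD and 0.045 in HD (n = 5), and a difference of -0.0089.

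The crosslinking enzyme Lox gave little signal in either gel. It read 4.13, 4.26, 4.16, 4.31 and 4.27 in LD and 4.32, 4.39, 4.25, 4.35 and 4.29 in HD, all under the floor and under the negative control medians. Its groups overlapped, and with the filter on dim rows left out the difference of 0.09 did not pass the limma test (adjusted p = 0.13). No fold is given for it.

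**Figure D2:**
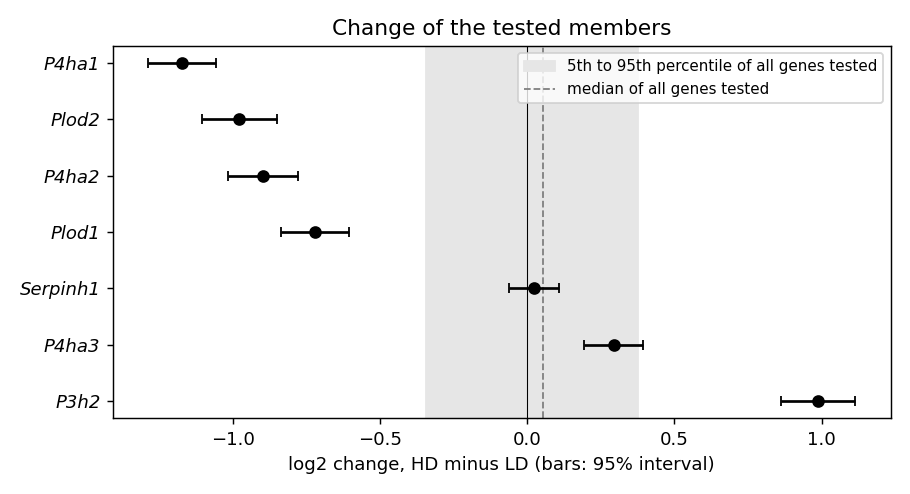
Log2 change (HD minus LD) of the 7 tested genes with 95% intervals from limma (points and bars), over the 5th to 95th percentile of all 17800 genes tested (grey band, -0.344 to 0.378) and their median (dashed line, 0.055). P4ha1, Plod2, P4ha2 and Plod1 lie below the band, P3h2 above it, and Serpinh1 and P4ha3 have their points inside it.

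Whether relatives within a family changed unequally was tested on their log2 difference within each array, for the 4 pairs in which both genes were tested. Probes of different genes differ in brightness, so only the shift of that difference between gels is read. P4ha1 minus P4ha2 was 2.82, 2.77, 2.89, 2.79 and 2.78 in LD and 2.58, 2.42, 2.54, 2.55 and 2.59 in HD. As measured, P4ha1 thus fell by more than P4ha2, by 0.27 on the log2 scale (2.81 ± 0.048 to 2.54 ± 0.071 SD, n = 5, 2-sided exact permutation p = 0.0079). This extra fall was 0.50 under control-row scaling. P4ha2 was the dimmer row, and the part of brightness in this difference was not tested.

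The opposite course of P4ha3 gave the widest shifts. P4ha1 minus P4ha3 went from 3.61 ± 0.103 (SD, n = 5) to 2.14 ± 0.150, a shift of -1.46, and P4ha2 minus P4ha3 went from 0.80 ± 0.117 to -0.39 ± 0.114, a shift of -1.19. Among the lysyl hydroxylases, Plod1 minus Plod2 shifted from -1.88 ± 0.054 to -1.62 ± 0.119. As measured, Plod1, the dimmer row, thus fell by 0.26 less than Plod2 (0.40 with control-row scaling). The part of brightness was not tested here either. In each of the 4 pairs the LD and HD differences did not overlap. Each pair had an exact permutation p of 0.0079, also after Benjamini-Hochberg adjustment over the 4 pairs. For the pairs with P4ha3 this outcome was fixed by the opposite, non-overlapping moves of the single genes, so it adds nothing to their calls.

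**Figure D3:**
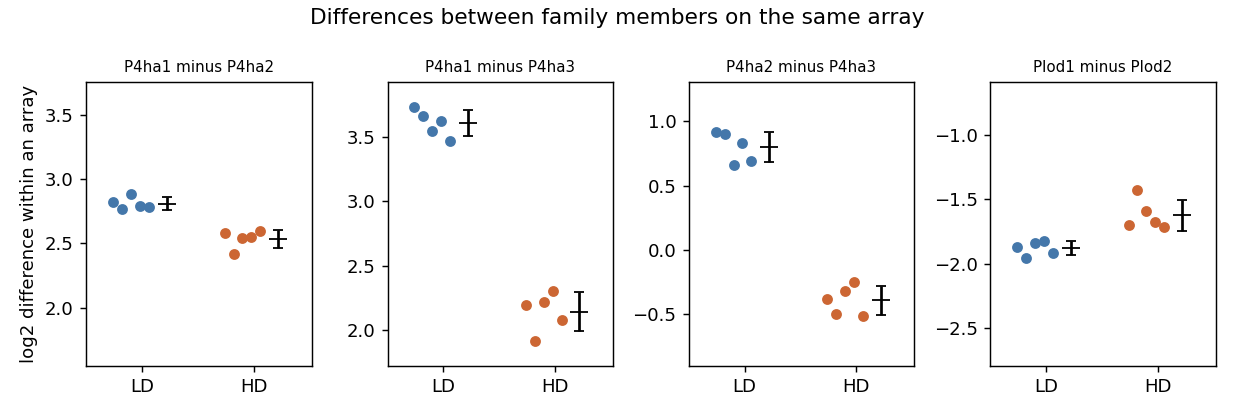
Log2 difference between 2 family members on the same array for the 4 pairs tested (points, 5 LD and 5 HD arrays; bars, mean and SD). All panels span the same 2.2 log2 units. The groups are separate in each, by most for P4ha1 and P4ha2 against P4ha3.

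The 4 genes that fell also shared an order among the LD arrays: replicates 1 and 2 were the highest LD arrays for P4ha1, P4ha2, Plod1 and Plod2. The same held for 12.8% of all genes tested and 34.7% of the 3467 genes called lower. It did not hold for P4ha3, P3h2 or Serpinh1. Among 10 other genes known as HIF-1 targets (listed with their fall in these data already known), it held for 9, Adm being the exception, and among 8 genes of oxygen sensing for Egln1 and Egln3. Whether replicates 1 and 2 differed in handling was not tested. Without LD replicate 1 the log2 changes were -1.13 for P4ha1, -0.86 for P4ha2, -0.69 for Plod1 and -0.95 for Plod2, and without LD replicate 2 they were -1.15, -0.87, -0.70 and -0.94.

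The genes whose values over the 10 arrays were most like those of P4ha1 were Map3k1, Ero1a and Egln1, with Pearson r of 0.998, 0.998 and 0.995. Likeness was ranked over all 17800 genes, and the difference between the gels makes up most of it. Map3k1 encodes a kinase that activates stress-responsive MAP kinases, and it fell by 0.54 ± 0.038 SE on the log2 scale. Ero1a encodes the oxidase that supports disulfide bond formation in the endoplasmic reticulum, and it was 2.58-fold lower (10.97 ± 0.151 to 9.60 ± 0.055 SD, n = 5). Egln1 encodes PHD2, the HIF prolyl hydroxylase, which shares its cofactors with the collagen hydroxylases. For P3h2 the most alike were Atp5g3, a subunit of the ATP synthase, Fkbp1a, a peptidyl-prolyl isomerase, and Ccnb1ip1, an E3 ubiquitin ligase, with r of 0.994, 0.993 and 0.992. Ccnb1ip1 rose 1.78-fold and Atp5g3 1.32-fold, while Fkbp1a rose by 0.24 (0.097 with control-row scaling).

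**Figure D4:**
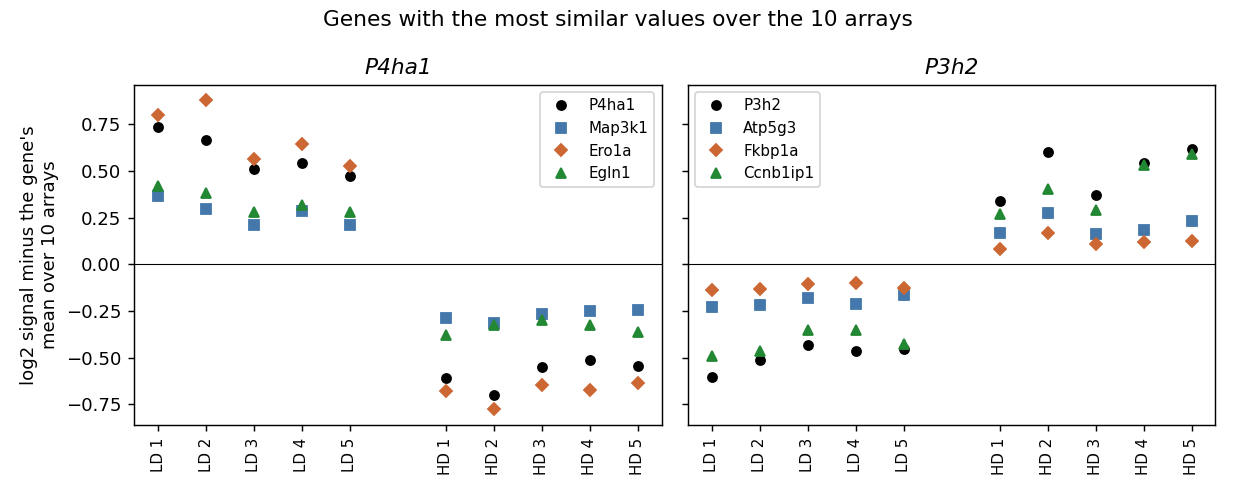
Log2 signal minus each gene's mean over the 10 arrays, for P4ha1 (left) and P3h2 (right, black circles) with the 3 genes most like each (coloured), on LD and HD replicates 1 to 5. In the left panel LD replicates 1 and 2 stand highest for all 4 genes, and all genes of a panel switch sign between the gels.

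Other genes of collagen folding, modification and processing moved both ways. Of 25 listed, 2 had no row of their own and 3 lay below the floor; of the remaining 20, 8 rose, 7 fell and 5 passed in neither direction. Against these counts, 31.4% of all genes tested were called higher and 19.5% lower. The list's median log2 change was 0.056, against 0.055 for all genes. The largest change was in Pcolce2, an enhancer of procollagen C-propeptide removal, which rose 1.45-fold (9.20 ± 0.054 to 9.73 ± 0.058 SD, n = 5; limma adjusted p = 2.5e-07). Adamts14, a procollagen N-propeptidase, was 1.33-fold lower (log2 change -0.41 ± 0.043 SE). Bmp1, the C-propeptidase that Pcolce proteins enhance, was 1.27-fold lower (log2 change -0.34, or -0.54 with control-row scaling), and Pcolce fell by 0.20; these 2 are named after their values were seen.

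The lysyl oxidase family, in which Lox read below the floor and Loxl2 had no row of its own, was represented by 3 other genes. Loxl4 rose 1.29-fold (8.83 ± 0.056 to 9.19 ± 0.070 SD, n = 5; limma adjusted p = 1.0e-05). Loxl3, named after its value was seen, fell 1.23-fold (8.92 ± 0.047 to 8.62 ± 0.052; limma adjusted p = 2.0e-05). Loxl1, named likewise, differed by -0.04 and did not pass (limma adjusted p = 0.49), except as higher with control-row scaling (0.20, limma adjusted p = 0.038). Its LD signal, 5.64, lay below the negative control median of 5.67.

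P4hb, the beta subunit shared by the collagen prolyl 4-hydroxylases and also a disulfide isomerase, fell by 0.19 on the log2 scale (10.93 ± 0.032 to 10.74 ± 0.035 SD, n = 5, 0.033 SE, limma adjusted p = 3.4e-04). Control-row scaling gave -0.39. It is named after its value was seen, and whether its fall differed from that of P4ha1 was not tested. In the prolyl 3-hydroxylation complex, P3h1 rose by 0.10, and Ppib, the isomerase cyclophilin B, by 0.12, while Crtap, the complex's remaining member and also chosen with its value in view, showed a change of 0.013 with overlapping groups (limma adjusted p = 0.83). P3h3, a relative of P3h1, rose by 0.10. Control-row scaling turned Ppib to -0.15 and gave Crtap as lower (-0.19, limma adjusted p = 0.0030), P3h1 as 0.25 and P3h3 as 0.22. Ppib and Crtap were bright (LD means 11.6 and 10.9) and P3h1 and P3h3 dimmer (6.6 and 7.0). These moves thus went with brightness, and were not tested apart from it. The P3h1 call was lost without LD replicate 1 or 3 (adjusted p = 0.059 and 0.066), and the P3h3 call without LD replicate 1, LD replicate 2 or HD replicate 4 (adjusted p = 0.064, 0.052 and 0.058). The other risers were Creb3l1 (0.20), a transcription factor of collagen genes, P4htm (0.17), a membrane-bound prolyl hydroxylase, and Tmem38b (0.14), an endoplasmic reticulum ion channel needed for collagen modification, each with overlapping groups; control-row scaling gave 0.41, 0.42 and 0.34. In LD the signal of P4htm, counted in the list but not an established collagen enzyme, was 5.41, below the negative control median.

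Substrates of these enzymes were mostly dim. Of 20 listed collagen chains and elastin, 1 had no row of its own. Of 19 tested, 8 rose, 3 fell and 8 passed in neither direction, with a median log2 change of 0.124. Among all genes tested, 31.4% rose and 19.5% fell, and the arrays did not overlap for 36.7%. All 8 that rose had LD means below 7, and of the 11 called only Col4a5 and Col12a1 had groups that did not overlap. Col4a5, a basement membrane collagen chain, fell 1.35-fold (6.86 ± 0.106 to 6.43 ± 0.080 SD, n = 5; limma adjusted p = 1.9e-05). Col12a1, a fibril-associated collagen, rose by 0.30 and Col6a3, a chain of the microfibrillar collagen VI, by 0.16. The LD signal of Col12a1, 5.38, lay below the negative control median of 5.67 and that of Col6a3, 5.77, close to it, so these sizes are not well determined; control-row scaling gave 0.55 and 0.39, and -0.28 for Col4a5. These counts were not stable. With 1 array left out, 3 rose without LD replicate 1, LD replicate 2, HD replicate 3 or HD replicate 5, 4 without HD replicate 4, and 5 without LD replicate 3 or 5. Only 1 fell without LD replicate 1, LD replicate 3 or HD replicate 1. Ordinary t statistics gave 3 risers and no filter gave 4, whereas quantile normalization gave 13 and control-row scaling 14.

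**Figure D5:**
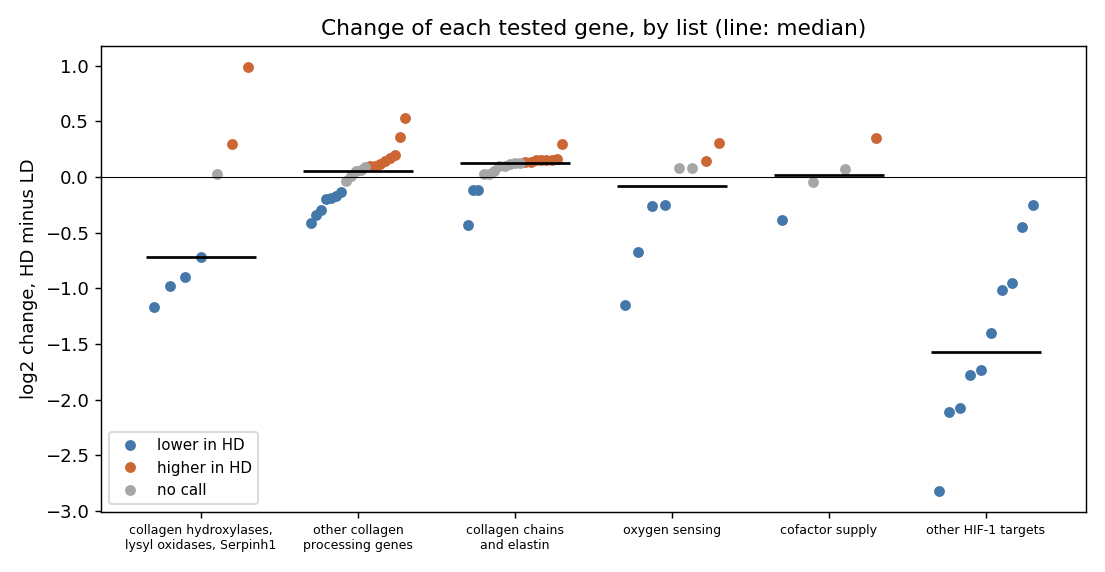
Log2 change (HD minus LD) of every tested gene in each list (points, coloured by the limma call at an adjusted p of 0.05), with the list's median as a line. The medians are -0.72 for the hydroxylases, lysyl oxidases and Serpinh1, 0.056 for other collagen processing genes, 0.124 for collagen chains and elastin and -1.57 for the other HIF-1 targets, a list drawn up with its fall known.

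Genes of oxygen sensing and of cofactor supply are shown because the hydroxylases depend on oxygen and the lysyl oxidases on copper. Among all genes tested, 19.5% fell and 31.4% rose. Of 8 oxygen-sensing genes, 4 fell and 2 rose (median -0.084). The risers were 1 without LD replicate 2, LD replicate 3 or HD replicate 3, 3 without HD replicate 1 or with control-row scaling, and 4 with quantile normalization, while 4 fell in each of these. Egln3, the HIF prolyl hydroxylase PHD3, was 2.21-fold lower (10.37 ± 0.070 to 9.22 ± 0.082 SD, n = 5; limma adjusted p = 1.6e-09), and Egln1 was 1.60-fold lower; both are themselves known HIF-1 targets. Hif1a, the oxygen-regulated subunit of HIF-1, rose by 0.31 (0.18 with control-row scaling). Arnt, the other subunit of HIF-1, fell by 0.26 and Vhl by 0.25, both without overlap of the groups. Epas1 rose by 0.14, with overlapping groups and an LD signal of 5.37, below the negative control median. Arnt, Vhl and Epas1 are named after their values were seen. All 10 of the other HIF-1 targets fell (median -1.57). Adm, a secreted peptide hormone, was 7.05-fold lower, the carbonic anhydrase Car9 4.33-fold and Ankrd37 4.21-fold; the list is not independent evidence, as it was drawn up with these results known. Of 5 genes of ascorbate and copper supply, 4 were tested: the copper chaperone Atox1 rose by 0.35 and the copper pump Atp7a, which loads secreted copper enzymes, fell by 0.39. The remaining 2 tested passed in neither direction, and the list's median was 0.017; 2 of the 4 rose with quantile normalization, control-row scaling or array weights.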

How the data were processed

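RNA of 10 samples of 4T1 cells was measured on 1 array each. The deposited table holds log2 signals made by the authors with RMA, per the submitters' processing notes. Software, annotation and genome build were not given in the sources used here. The log2 scale was taken from the values (1.49 to 14.3, array medians 5.19 to 5.28). RMA can understate folds. Of 72688 rows, 30604 named 1 gene in the platform annotation and 2146 several; gene IDs of 22818 matched RefSeq (GRCm38.p6, names only) and 825 symbols were updated. No 2 arrays held identical values.

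Genes were tested with limma 3.58.1 (R 4.3.3; lmFit, eBayes, 2 groups, two-sided), with Benjamini-Hochberg adjustment over 17800 genes and a threshold of 0.05. Family pairs were tested by exact permutation (252 assignments). The limma test was tested on simulated data for this comparison (17800 genes, 50 changed per size) and found 72% of the genes changed by 0.25 (log2), 98% of those changed by 0.5 and 100% of those changed by 1. The members and lists were chosen with earlier results of these data known. Named genes are all members, the 3 called genes with the largest change of each list, partners that rose, and the 3 genes most like the member that fell most and the member that rose most, leaving out unannotated symbols and pseudogenes. Alternatives were a replicate block, 3 rescalings, 2 filters, averaged rows, 4 variance or weight models and leaving out each array. Deviations of same-numbered arrays correlated at 0.19, -0.091, -0.036, 0.22 and -0.025, so numbers were not treated as pairs. Scan dates and batches were not used here.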

Additional observations from a re-analysis of the deposited data

Results flagged for a closer look

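In 74 groups of 5 arrays (8 members, the other named genes and the 4 family differences, in LD and HD), 7 held an array far from the other 4 (gap over range above Dixon's critical value), where chance gives about 1 in 20. Plod1 in HD replicate 2 was 7.31, above the other HD arrays (7.14 to 7.18), and the HD difference P4ha1 minus P4ha2 was lowest on the same array (2.42, others 2.54 to 2.59). Serpinh1 in LD replicate 5 was 8.09 (others 8.01 to 8.03). Creb3l1 was high in LD replicate 4 (6.03, others 5.81 to 5.87) and in HD replicate 3 (6.20, others 6.01 to 6.07). Egln3 was high in HD replicate 2 (9.36, others 9.16 to 9.21) and Adm in HD replicate 4 (6.33, others 5.99 to 6.07). Without HD replicate 2 the change of Plod1 was -0.75 and the difference P4ha1 minus P4ha2 shifted by -0.24.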

How the results depend on the processing

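The 6 called members kept their direction and call in every alternative in which they were tested. P4ha1 ranged from -1.27 to -1.13, P4ha2 from -0.93 to -0.77, Plod1 from -0.76 to -0.64, Plod2 from -1.05 to -0.94, P4ha3 from 0.27 to 0.44 and P3h2 from 0.96 to 1.18; Serpinh1 stayed uncalled (0.0076 to 0.076). The stricter filter (75th percentile, log2 6.96) left P4ha2, P4ha3 and P3h2 untested, so that 0 members were called higher, 3 lower, and 1 family pair could be tested. With the replicate block, 4 members were lower and 2 higher and 9058 genes were called, against 9056. The paired test of the family differences called 0 pairs, because 5 pairs cannot give an exact p below 0.0625. Ppib, a bright row, reversed to -0.15 with control-row scaling, which lowered the changes of bright rows. Counts of all genes called ran from 6835 (stricter filter) to 12174 (control-row scaling). Arrays, signal over background and the unknown batches limit what is said of dim rows such as P3h2 in LD and Lox.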
